A study of Homo sapiens with 4 samples.

Results

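The cytosolic ribosomal protein genes were compared between 2 human lung cancer cell lines, PC9 and MTAC-P. Members were genes whose probe sets carried a single symbol starting RPL or RPS and a digit, or RPLP0, RPLP1, RPLP2 or RPSA. Of 94 such symbols on the array, 10 ribosomal S6 kinases, 4 pseudogenes and 3 others were left out, the last being the binding protein gene RPS19BP1, the antisense gene RPL26L1-AS1 and the divergent transcript RPL34-DT. This left 77 of 18239 genes with a single symbol, 50 of the large and 27 of the small ribosomal subunit. Among them, 67 were core genes (43 large, 24 small) and 10 were paralogs, which are second genes similar to a core gene. Some further ribosomal protein genes were not analysed here. The paralogs RPS4Y1 and RPS4Y2 were counted as tested members, but no values are given for them.

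PC9 is an established line of lung adenocarcinoma that carries an activated EGFR. MTAC-P is described in the labels as a resistant line obtained by mild treatment with a tyrosine kinase inhibitor. The inhibitor, its dose, the parent line and whether drug was present at harvest are not given in the sources used here. Cells were cultured in DMEM with serum, and each line was measured on 2 arrays, for 4 arrays in all. Since the labels do not say that the arrays of a line came from separate cultures, the p-values measure only the spread between these arrays, which may be technical. Values are log2 expression values, and the table runs from 3.32 to 14.63. The 6 epithelial markers EPCAM, CDH1, KRT7, KRT8, KRT18 and KRT19 had 4-array means from 10.62 to 14.36. The lung lineage markers NKX2-1, SFTPB, SFTPC and NAPSA lay at 5.01 or below, as dim as the measured markers of fibroblasts (4.58 or below), blood (4.65 or below) and endothelium (5.34 or below).

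A ribosome is built from a small subunit, which reads the messenger RNA, and a large subunit, which joins amino acids. Most core ribosomal proteins are needed in equal number, and their genes are expressed at high levels in growing cells. Many ribosomal protein messenger RNAs start with a C followed by further C and T letters, the 5′ terminal oligopyrimidine (TOP) tract, through which mTOR signalling controls their translation. Several ribosomal proteins that are not bound in ribosomes, RPL5 and RPL11 above all, inhibit MDM2 and so stabilise p53.

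Most core genes had a sequence feature at their start that the choice by symbol did not use. A tract was counted where the annotated start base was a C and bases 2 to 5 were each C or T, on the gene's own strand only, in RefSeq promoter windows of assembly GRCh38.p14 (250 bases before to 50 after the start). It was present at an annotated start of 42 of 57 core genes with a window (73.7%), against 1404 of all 27305 genes (5.14%). Of the 6 paralogs with a window only RPL22L1 held it, and of 69 mitochondrial ribosomal protein genes 6 did (8.70%). With the tract allowed to begin within 5 bases of the start, the shares were 86.0% of core genes and 25.2% of all genes. By window instead of by gene, 61.8% of 68 core windows and 4.07% of all 35116 windows held it. The sequences are printed for members that the results turn on, with and without the tract, from 15 bases before the start, in capitals from the start base to the end of its run of C and T letters where that run begins with C.
RPS6 (chr9:19380222-19380251, minus strand): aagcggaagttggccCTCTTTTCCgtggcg
RPS24 (chr10:78033848-78033877, plus strand): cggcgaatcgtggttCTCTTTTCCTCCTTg
RPS9 (chr19:54200843-54200872, plus strand): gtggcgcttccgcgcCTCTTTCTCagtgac
RPL18 (chr19:48619164-48619193, minus strand): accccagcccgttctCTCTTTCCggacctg
RPL26 (chr17:8383179-8383208, minus strand): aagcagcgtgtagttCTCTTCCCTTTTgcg
RPL36A (chrX:101390996-101391025, plus strand): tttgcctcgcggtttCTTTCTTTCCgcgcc
RPL22 (chr1:6199581-6199610, minus strand): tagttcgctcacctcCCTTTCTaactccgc
RPL3 (chr22:39319609-39319638, minus strand): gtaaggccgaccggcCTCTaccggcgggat
RPS7 (chr2:3575245-3575274, plus strand): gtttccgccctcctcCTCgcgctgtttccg
RPS26 (chr12:56041903-56041932, plus strand): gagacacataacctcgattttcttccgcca
RPL22L1 (chr3:170870181-170870210, minus strand): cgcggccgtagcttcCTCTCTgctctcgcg
RPL36AL (chr14:49620612-49620641, minus strand): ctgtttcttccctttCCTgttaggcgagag
RPL7L1 (chr6:42879601-42879630, plus strand): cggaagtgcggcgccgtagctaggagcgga
RPS27L (chr15:63157463-63157492, minus strand): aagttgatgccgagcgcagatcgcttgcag
The core genes RPS6, RPS24, RPS9, RPL18, RPL26, RPL36A and RPL22 show the tract. The core genes RPL3 and RPS7 and the paralog RPL36AL have shorter runs, of 4, 3 and 3 letters, and RPS26, RPL7L1 and RPS27L have no C at the start base. The sequence of RPL7 is not shown here. A match is a description of these letters at an annotated start and does not show where transcription began in these cells.

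**Figure D1:**
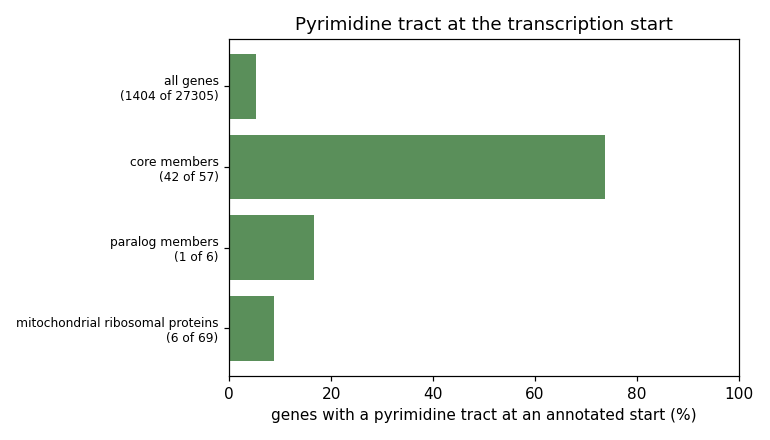
Share of genes (%, horizontal axis) with a C at an annotated start base followed by C or T at bases 2 to 5, with counts of genes beside each bar. The bar of core ribosomal protein genes reaches 73.7% and that of all genes 5.14%.

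Between the resistant line and PC9, the core ribosomal protein genes showed small differences: 50 of 67 had means within 0.1 of each other on the log2 scale (74.6%, against 24.2% of all 14970 tested genes). These sets differ in level, with a median 4-array mean of 14.01 for core genes and 6.87 for all tested genes. At means of 13 or more, the median absolute log2 difference was 0.053 for core genes and 0.101 for other genes. Of the 77 members 76 passed the filter on dim genes, all 67 core genes among them, and 0 of the 76 passed limma's adjusted p threshold of 0.05, beside 3 of all tested genes (0.02%). At an unadjusted limma p under 0.05 there were 2 members, RPL7 and RPS27L, both lower in MTAC-P (2.63% of members, against 18.9% of all tested genes, of which 11.1% were lower and 7.76% higher). Means were at least 2-fold apart for 0 members and for 2.02% of all tested genes. For 41 of the 67 core genes both arrays of a line lay above both of the other (61.2%, near the 53.2% of all tested genes).

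Both subunits had medians near 0. The 49 tested large subunit members had a median log2 difference, MTAC-P minus PC9, of -0.0031, with 23 higher and 26 lower in MTAC-P. The 27 small subunit members had a median of 0.00175, with 14 higher and 13 lower. Both medians lay below that of all tested genes, 0.031, of which 53.8% were higher in MTAC-P, and both were below 0 when arrays were centred on their median and above 0 when centred on their 75th percentile. By array, the median level of the core large subunit genes was 13.96 and 13.96 in PC9 and 13.997 and 13.926 in MTAC-P. That of the core small subunit genes was 14.13 and 14.13 in PC9 and 14.12 and 14.06 in MTAC-P. The second MTAC-P array was the lowest for the core genes of both subunits. The lines overlapped in the core large subunit but not in the core small subunit, whose median log2 difference over genes was 0.00655. Over all 27 small subunit members the array medians of the lines overlapped. No test of the subunits against each other was made.

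**Figure D2:**
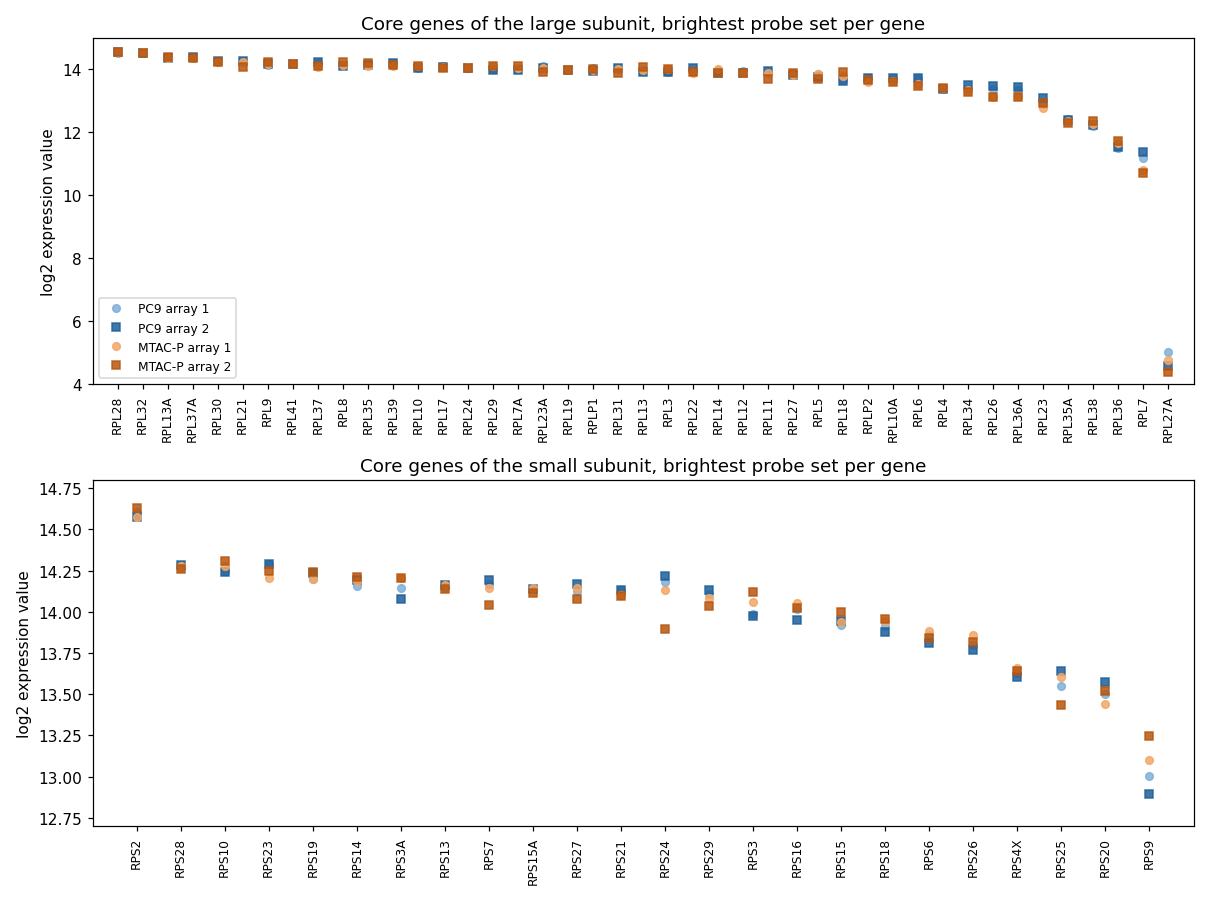
Log2 expression value (vertical axis) of each core gene on the 4 arrays, ordered by mean, for the large subunit (top) and the small subunit (bottom, with a narrower axis). Points of most genes lie close together, those of RPL7 and RPL27A are spread more widely, and RPL27A lies far below the rest.

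The test's precision set what could be seen. Limma's standard errors (SE) for the tested members ran from 0.150 to 0.223, because a single prior variance was shared by all genes, whereas the core members' duplicates differed by a median of only 0.0285 in PC9 and 0.045 in MTAC-P. With a variance trend over level, the median SE was 0.0633, 12 of 76 members had an unadjusted limma p under 0.05 (15.8%, against 19.9% of all tested genes), and 0 members passed the adjusted threshold, which 0.514% of all tested genes passed. Those 12 were RPL7, RPL26, RPL36A, RPL6, RPL37, RPL22L1, RPS24 and RPS27L, lower in MTAC-P, and RPL18, RPS9, RPL7L1 and RPL39L, higher.

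Most core members lay close to the upper end of the table. Means of 13 or more were found for 61 of the 67, beside 151 other genes, and RPS2, which lines the messenger RNA entry path, had the highest mean of all genes at 14.597. Over the 61 core genes the median absolute log2 difference was 0.053, and over the 151 other genes at that level it was 0.101. The 5 core genes with means between 10 and 13 had a median absolute difference of 0.148, against 0.218 for the 2106 other genes there. Whether values near the upper end of the table are compressed was not tested. Of the core genes, 48 had at least 2 probe sets with means above 8. In 33 of these 48 the dimmest such probe set had the larger absolute difference, with a median of 0.077 against 0.050 for the brightest. The signs matched in 32 of the 48.

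The following were chosen after their values were seen. RPL22, a large subunit protein that also binds cellular RNAs, differed by -0.085 on its brightest probe set (mean 13.94) and by -0.38 on its dimmest above 8 (mean 10.79). RPS15A of the small subunit differed by -0.014 at a mean of 14.14 and by 0.28 at 11.76. RPL10, which completes the large subunit late in its assembly, differed by 0.054 at 14.08 and by 0.54 at 9.07. In these 3 genes the dimmer probe set gave the larger difference, whereas in RPS25 it was the smaller, -0.0075 at 9.97 against -0.078 at 13.56. RPL37 gave opposite signs, -0.13 at 14.16 and 0.47 at 8.36. The largest difference of any core probe set, 1.10, came from a dim RPS29 probe set with values of 6.17 and 5.67 in PC9 and 7.11 and 6.94 in MTAC-P, while the brightest RPS29 probe set differed by -0.061. What transcripts these dimmer probe sets match is not given in the sources used here.

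**Figure D3:**
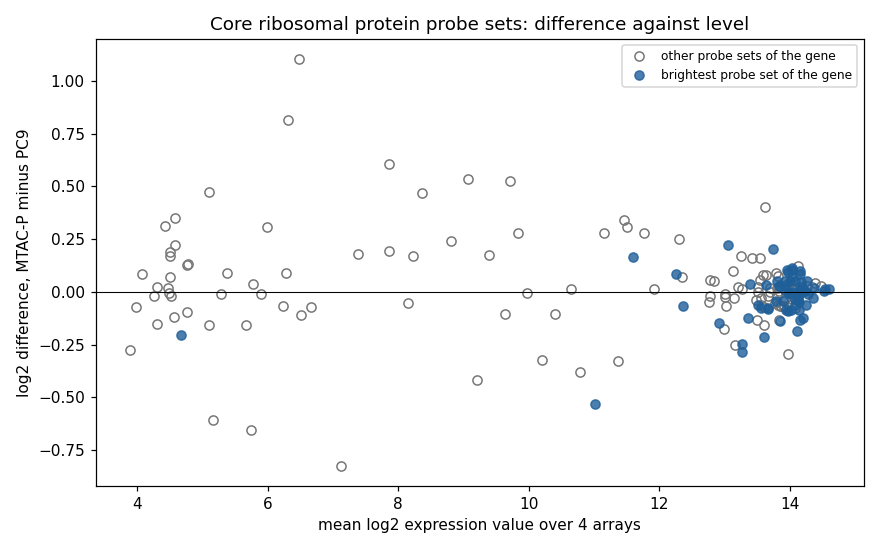
Log2 difference, MTAC-P minus PC9 (vertical axis), against the 4-array mean (horizontal axis) for 192 probe sets of the 67 core genes. The filled points, the brightest of each gene, crowd around 0 above a mean of 13, and the open points spread from -0.82 to 1.10.

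Among the large subunit proteins, RPL7 differed most. RPL7, a core protein of the subunit, had values of 11.19 and 11.39 in PC9 and 10.79 and 10.72 in MTAC-P. Both MTAC-P arrays were below both PC9 arrays. The log2 difference of RPL7 was -0.53 (SE 0.16, 95% interval -0.92 to -0.14, limma adjusted p = 0.170), a 1.45-fold lower level in MTAC-P, and it stayed between -0.63 and -0.43 when 1 array was left out. It rests on a single probe set, whose 4-array mean of 11.02 lay below the median of 14.01 over the core genes.

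RPL26, which lies at the polypeptide exit tunnel and promotes p53 translation, had values of 13.36 and 13.46 in PC9 and 13.12 and 13.13 in MTAC-P. The lines did not overlap, and the difference was -0.29 (SE 0.15, limma adjusted p = 0.356). RPL36A, a large subunit protein on the X chromosome, had values of 13.34 and 13.45 in PC9 and 13.16 and 13.13 in MTAC-P, a difference of -0.25 (SE 0.15, limma adjusted p = 0.420). RPL6 and RPL37 also had lower values on both MTAC-P arrays, by -0.21 and -0.13. They and RPL21, RPL34, RPL29 and RPL3 fall outside the naming rule and are named because their differences were past 0.1. RPL34 differed by -0.13 and RPL21 by -0.12, again without overlap.

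Higher values in MTAC-P were fewer in the large subunit. RPL18 had values of 13.65 and 13.64 in PC9 and 13.78 and 13.92 in MTAC-P, a difference of 0.20 (SE 0.16, limma adjusted p = 0.510). RPL36 had values of 11.50 and 11.53 in PC9 and 11.65 and 11.71 in MTAC-P, a difference of 0.17 (SE 0.15, limma adjusted p = 0.583). The lines did not overlap for either gene. RPL3, which reaches towards the peptidyl transferase centre, differed by 0.106 and RPL29 by 0.103. RPL27A had means of 4.77 and 4.57, barely above the dim value of 4.14, overlapping between the lines. It has a single probe set and is named because it stands apart.

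RPL5, RPL11, RPL23 and RPL26 are large subunit proteins known to bind MDM2. They are not the only ribosomal proteins reported to do so. Among others reported, RPS3, RPS14 and RPS26 had higher means in MTAC-P, and RPL6, RPL37, RPS7, RPS25 and RPS27L had lower means. RPL5, RPL11, RPL23 and RPL26 all had lower means, and 0 of these 4 passed the test. Of all tested genes, 53.8% had higher means. RPL5, which joins RPL11 and the 5S RNA in the 5S ribonucleoprotein particle, had values of 13.87 and 13.75 in PC9 and 13.84 and 13.69 in MTAC-P. These overlapped, and the difference of -0.045 turned sign with PC9 replicate 1 or MTAC-P replicate 2 left out and with the mean of all probe sets. RPL11 had values of 13.90 and 13.95 in PC9 and 13.89 and 13.685 in MTAC-P, a difference of -0.14 that was -0.038 without MTAC-P replicate 2. RPL23 had values of 12.91 and 13.07 in PC9 and 12.78 and 12.91 in MTAC-P, which overlapped. MDM2 itself differed by -0.35 (SE 0.18, limma adjusted p = 0.331) at means of 5.75 in PC9 and 5.39 in MTAC-P. The difference of MDM2 ranged from -0.52 to -0.090 over all settings. RPLP1 and RPLP2, the acidic proteins of the stalk that recruits elongation factors, differed by -0.0055 and -0.076, and the sign of RPLP1 turned under 3 settings, centring on the 75th percentile among them. Of the 8 exit tunnel genes listed, 7 lay within 0.1 of 0, RPL26 being the exception.

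Small subunit genes were closer between the lines still, with 21 of 24 core genes within 0.1, against 29 of 43 in the large subunit. Level differed too, as every core small subunit gene had a mean of 13.06 or more. The 6 core genes with means under 13, all of the large subunit, had a median absolute difference of 0.157. RPS9, a protein near the messenger RNA entry, had values of 13.01 and 12.89 in PC9 and 13.10 and 13.245 in MTAC-P. It was higher on both MTAC-P arrays, with a difference of 0.22 (SE 0.16, 95% interval -0.16 to 0.605, limma adjusted p = 0.479). RPS24, which is needed to process the small subunit's ribosomal RNA and is mutated in some families with Diamond-Blackfan anaemia, had values of 14.18 and 14.22 in PC9 and 14.135 and 13.90 in MTAC-P. Its difference of -0.18 (SE 0.16, limma adjusted p = 0.576) on this probe set rested largely on the second MTAC-P array and was -0.064 without it. On another bright RPS24 probe set (mean 13.97) the difference was -0.30. The values there were 14.07 and 14.175 in PC9 and 13.96 and 13.69 in MTAC-P. RPS3, a protein of the entry path with a further role in DNA repair, had values of 13.985 and 13.97 in PC9 and 14.06 and 14.12 in MTAC-P, a difference of 0.11.

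On their brightest probe sets, the other named core genes of the small subunit differed by 0.1 or less. RPS6, the substrate of the S6 kinases, had values of 13.86 and 13.81 in PC9 and 13.885 and 13.84 in MTAC-P, and the lines overlapped. RPS14, whose loss causes the anaemia of the 5q- syndrome, differed by 0.023 with overlap. Its other probe sets (means 13.25 and 13.13) differed by 0.17 and 0.097 without overlap. RPS19, the gene most often mutated in Diamond-Blackfan anaemia, differed by 0.00175, with a sign that turned under 6 settings, median centring and quantile normalization among them. The 95% interval of RPS19 ran from -0.36 to 0.365. RPS3A and RPS16 were higher on both MTAC-P arrays, by 0.097 and 0.053, and RPS26 by 0.053. A further RPS3A probe set, nearly as bright (mean 14.03), went the other way, by -0.032, also without overlap. RPS7 and RPS23 were lower on both MTAC-P arrays, by -0.085 and -0.064, whereas RPS25, at -0.078, overlapped and turned sign without MTAC-P replicate 2. Another bright RPS25 probe set (mean 13.17) differed by -0.25 without overlap. The signs of RPS3A and RPS6 turned with the mean of all probe sets, and that of RPS7 without _x_at probe sets, the kind whose probes can match other sequences. Without them RPS16 was read from a much dimmer probe set (mean 7.86, against 14.01 for the brightest), which differed by 0.61. RPS2 differed by 0.011, with a sign that turned under 3 settings, median centring among them. RPL28, the brightest large subunit gene, differed by 0.014, and its sign turned there too.

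**Figure D4:**
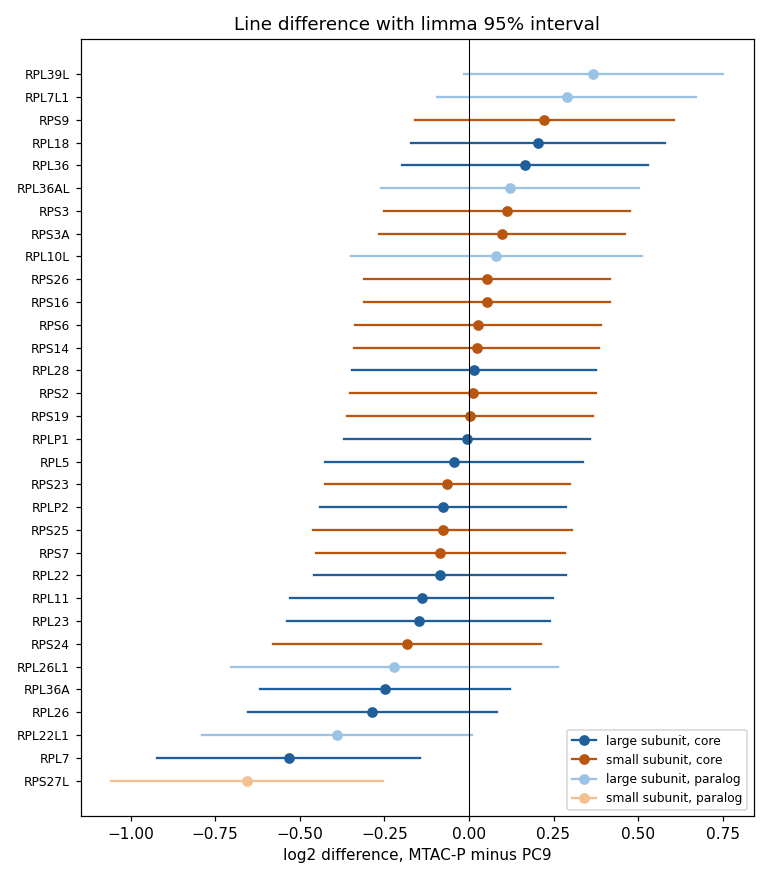
Log2 difference, MTAC-P minus PC9 (horizontal axis), of the named members that were tested, with limma's 95% interval as a line. The intervals of RPS27L and RPL7 lie below 0 and all others drawn include 0.

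The paralogs had a larger median absolute difference than the core genes. Over the 7 that were tested and have values here, the median absolute difference was 0.29, against 0.054 over the 67 core genes. Their median 4-array mean, 11.14, lay below that of the core genes, 14.01. RPS27L, a p53-inducible relative of RPS27 that takes part in the regulation of MDM2, had the largest difference of all members. Its values were 11.07 and 11.01 in PC9 and 10.51 and 10.26 in MTAC-P, so both MTAC-P arrays lay below PC9. The difference of RPS27L was -0.66 (SE 0.17, 95% interval -1.06 to -0.25, limma adjusted p = 0.137), a 1.58-fold lower level, and it ranged from -0.78 to -0.53 with 1 array left out. RPS27 itself, named for comparison as RPL39 is, had values of 14.13 and 14.17 in PC9 and 14.15 and 14.08 in MTAC-P, with overlap and a difference of -0.037.

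RPL22L1, which can take the place of RPL22 in the large subunit, had values of 11.55 and 11.80 in PC9 and 11.287 and 11.285 in MTAC-P. It was lower on both MTAC-P arrays, with a difference of -0.39 (SE 0.17, limma adjusted p = 0.272). RPL39L, the relative of the exit tunnel protein RPL39 that is abundant in male germ cells and many cancers, had values of 10.56 and 10.52 in PC9 and 10.82 and 11.004 in MTAC-P. It was higher on both MTAC-P arrays, by 0.37 (SE 0.16, limma adjusted p = 0.280), while RPL39 differed by -0.048 with overlap.

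RPL7L1, a relative of RPL7 that acts in ribosome assembly, had values of 11.09 and 10.91 in PC9 and 11.26 and 11.32 in MTAC-P. The difference of RPL7L1 was 0.29 (SE 0.16, limma adjusted p = 0.368), opposite in sign to that of RPL7. This was the largest difference among its 7 probe sets, and with the mean of all of them it was 0.14. RPL36AL differed by 0.12 where RPL36A, on its single probe set, differed by -0.25. The difference of RPL36AL was 0.0345 without PC9 replicate 2. Its other probe set, at nearly the same level (mean 12.37), differed by 0.030 with overlapping lines. RPL26L1 differed by -0.22 with overlapping arrays, and by only -0.012 without MTAC-P replicate 2. RPL10L and RPL3L, genes of germ cells and of muscle, lay at means up to 4.63, and RPL3L was left out of the test as dim. No difference between a paralog and its core gene was tested.

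**Figure D5:**
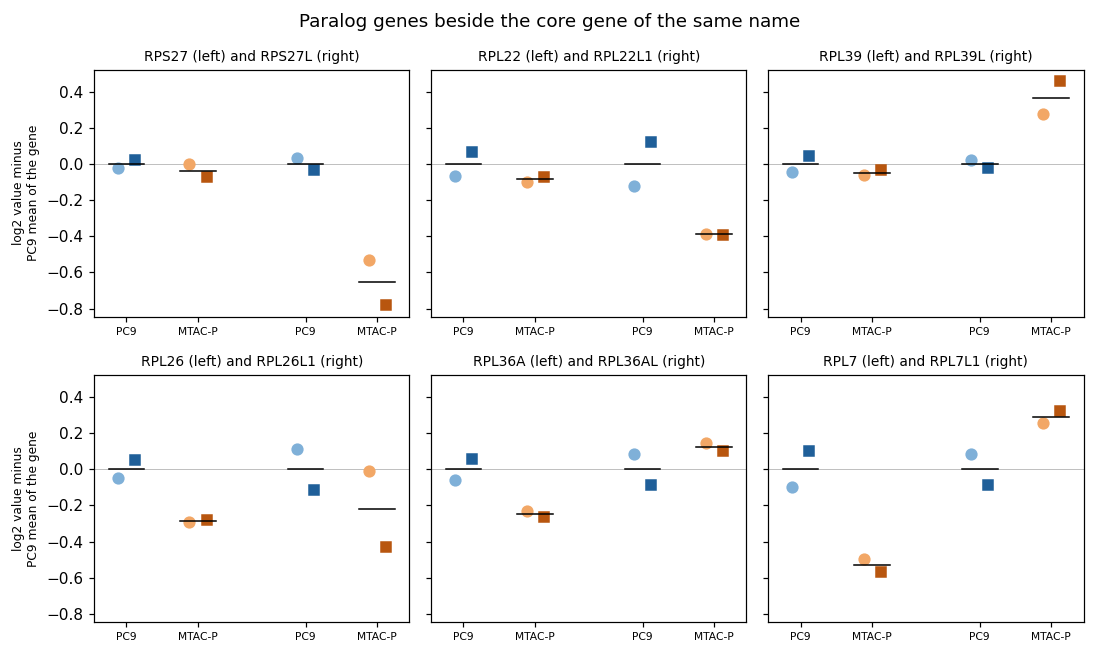
Log2 value minus the PC9 mean of the same gene (vertical axis) for 6 core genes (left in each panel) and their paralogs (right). Circles are replicate 1, squares replicate 2 and bars line means, with PC9 in blue and MTAC-P in orange; RPS27L and RPL22L1 lie lower and RPL39L and RPL7L1 higher in MTAC-P.

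By chromosome, 8 of the 9 core genes on chromosome 19 had higher means in MTAC-P. These were RPL13A, RPL18, RPL28, RPL36, RPS9, RPS15, RPS16 and RPS19, of which RPL28 and RPS19 turned sign under median centring. The other 1087 tested genes of chromosome 19 had a median of 0.126, and 68.6% of them were higher in MTAC-P. On chromosome 1 all 4 core genes, RPL5, RPL11, RPL22 and RPS27, had lower means, although 62.7% of the other 1528 genes there were higher. These counts are descriptions, and the grouping by chromosome was made after the values were known.

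Other genes of ribosome production are given beside the members. FAU, which encodes a fusion of a ubiquitin-like protein and small subunit protein S30, had overlapping values, with a difference of -0.012 that turned sign under 4 settings. Of 15 elongation factors and other genes known for TOP tracts, 7 had higher and 8 lower means in MTAC-P. Their median was -0.015, and 0 passed the test. EEF1G, a subunit of the elongation factor complex, differed by 0.27 and the initiation factor subunit EIF3F by 0.21, while EIF3E differed by -0.36 and the histone chaperone NAP1L1 by -0.24. Of 29 ribosome assembly genes 18 had higher and 11 lower means. Their median was 0.174, 0 passed the test, and the lines did not overlap for 24 of them (82.8%, against 53.2% of all tested genes). Among other genes with means from 7 to 10 and from 10 to 13, where most assembly genes lie, that share was 61.4% and 64.4%. At an unadjusted limma p under 0.05 there were 6 of the 29 (20.7%, near the 18.9% of all tested genes).

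PES1, which processes large subunit ribosomal RNA, had values of 9.65 and 9.42 in PC9 and 10.565 and 10.49 in MTAC-P. Its difference of 0.99 (SE 0.16, limma adjusted p = 0.0995) was a 1.99-fold higher level without overlap, and PES1 lies on chromosome 22, where 79.3% of tested genes that are not members were higher. BYSL, which acts on the small subunit, differed by 0.44, the assembly kinase RIOK2 by -0.79 and NOP58, a core protein of small nucleolar particles, by -0.62. RIOK2 was -0.30 without MTAC-P replicate 2. At the lowest, BYSL was 0.20 with 1 array left out and 0.12 over all settings. Of 11 genes of RNA polymerase I and its factors, which transcribe ribosomal RNA, 7 were higher and 4 lower, and 0 passed. POLR1E and POLR1C differed by 0.62 and 0.40, and TAF1B and TAF1D by -0.75 and -0.50. POLR1E was 0.19 without PC9 replicate 2.

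Of 14 regulators measured, 6 were higher and 8 lower, and 0 passed the test. EIF4EBP1, which restrains translation until mTOR phosphorylates it, had values of 10.10 and 10.00 in PC9 and 10.48 and 10.69 in MTAC-P, a difference of 0.54 (SE 0.16, limma adjusted p = 0.172). AKT1S1, an mTOR inhibitor, differed by 0.22 and the kinase RPS6KB1 by -0.33. The 76 mitochondrial ribosomal proteins, which serve the separate ribosome of mitochondria, had a median difference of 0.133, with 55 higher and 21 lower and 0 past the test. MRPL24 and MRPL4 differed by 0.68 and 0.59, and MRPL13 and MRPS35 by -0.54 and -0.49. Their median absolute difference was 0.22, the same to 2 decimals as that of all tested genes, against 0.054 for the core cytosolic genes, at a median level of 11.06 against 14.01. No test was made between these sets.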

How the data were processed

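Total RNA of PC9 and MTAC-P was hybridised to 1-colour arrays, 2 for each line. The authors deposited log2 expression values per probe set, a scale read from their range. Agilent Feature Extraction 10.7 is named per the submitters' processing notes, although probe-set names are of Affymetrix type. Normalization and summarization are not given in the sources used here, and there are no detection calls.

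Of 49386 probe sets, 45253 carried 1 symbol, 1327 several (9 with a ribosomal protein, unused), 2713 none, and 93 were controls. Each gene was its brightest probe set, and genes with a mean under the 25th percentile (4.14) were left out. Of the core genes, 12 had 1 probe set. The brightest probe set's name ended in _x_at for 41 and in _s_at for 18. Such probe sets can share probes with other sequences, pseudogenes included, so these values are uncertain. Line differences were tested in R 4.3.3 with limma 3.58.1, 2-sided, with Benjamini-Hochberg adjustment. The step was tested on simulated data with independent noise and changes of at least 2-fold, a size that no member reached. That test does not show how the step performs for smaller differences. Figures used Python 3.11.15 and matplotlib 3.10.9.

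Spreads are from 2 arrays per line, and an exact permutation test cannot go below p = 0.333. The members and lists were chosen with earlier results of these data known. Named members were, per subunit, the 5 largest differences each way, the brightest and dimmest, a fixed set of genes and all paralogs, and, per other list, the 2 largest each way. Alternatives were the replicate block, 3 scalings, 2 filters, the mean of probe sets, no _x_at probe sets, a variance trend, a robust prior, a pseudocount of 16 and leaving out each array.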

Additional observations from a re-analysis of the deposited data

How the results depend on the processing

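No member passed limma's adjusted threshold under any alternative except the replicate block, and 22 of 33 named members kept their sign under every setting tried. Of the 11 that turned, 8 did so under another scaling (4 genes) or with 1 array left out (7 genes, some of them the same), and 3 only with another choice of probe sets; the causes were not tested. Over all genes, limma called 3, against 77 with a variance trend, 1 with the dim filter at the 50th percentile, 1 with the pseudocount and 0 with the mean of all probe sets, where 2667 had an unadjusted p under 0.05. With 1 array left out it called from 0 to 57. The large subunit median moved from -0.0031 to -0.017 with centring on the array median, 0.025 with centring on the 75th percentile, -0.012 with quantile normalization and -0.019 with the mean of all probe sets, and from -0.024 to 0.0044 with 1 array left out. The small subunit median, 0.00175, was -0.0125 with centring on the array median, 0.030 with centring on the 75th percentile, -0.0026 with quantile normalization, 0.030 with the mean of all probe sets and 0.023 without _x_at probe sets, and ran from -0.0099 to 0.0048 with 1 array left out. With the replicate block, 2079 genes and 1 member, RPS27L (limma adjusted p = 0.0148), were called. The replicate numbers are not stated to pair arrays, and deviations of same-numbered arrays correlated at 0.280 across all tested genes. With 2 arrays per line, differences of the size seen in most core members cannot be told from 0.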
